A study of Drosophila melanogaster with 24 samples.

Results

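A set of 50 of the 15473 transcripts on the array was higher in wings at 2 and 6 h after puparium formation (APF), by at least 2-fold, than at every other stage measured. The transcripts were chosen by their measured values. Intensities were taken to log2 and averaged by stage, and a transcript was taken when the lower of its 2 and 6 h means lay at least 1 (a 2-fold difference) above the highest of its means at the late last larval instar (L3) and at 18, 24 and 36 h APF. Its 6 h mean also had to be less than 2.5 above its 2 h mean, which left out transcripts with a steep further rise from 2 to 6 h. The distance from the lower of the 2 and 6 h means to the highest other mean is called the margin below. Because the rule used these values, the height at 2 and 6 h is described here and was not tested.

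Wings of flies of the genotype w1118;+;+, a white-eyed laboratory stock without a transgene, were dissected at 6 stages, and total RNA of 10 wings made up each sample. Each of L3, 2, 6, 18 and 24 h APF had 4 independent samples, 36 h APF had 3, and RNA of its samples B and D was pooled for 1 further array, which was kept out of the means. Animals were reared at 25°C, and no treatment was given. The dissection was not the same throughout: up to 6 h APF the wing was taken along with the tissue that will form the notum, the back of the thorax, and from 18 h APF on the wing was taken without it. Each sample pooled wings, so fewer cells that carry a transcript and less of that transcript per cell cannot be told apart. Samples are named by the letter or number of their titles. A stage field of the labels went against the title and description for 14 arrays, including all 4 of 2 h APF (24 h in the field) and all 4 of 6 h APF (36 h in the field), and titles were followed throughout.

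The 2 and 6 h samples fall in the prepupal period. A pulse of the steroid hormone ecdysone at the end of larval life triggers puparium formation, the hormone then falls, and a second pulse closes the prepupal period. During these hours the wing disc everts, its epithelium lengthens and flattens into a bilayer, and a pupal cuticle is laid down, while the later pupal wing grows hairs and leaves the cell cycle. Ecdysone acts through a nuclear receptor that switches on short-lived early regulators, and these in turn act on larger groups of later genes. Which of the 50 transcripts belong to such groups is not given by the identifiers: the files carry FlyBase transcript numbers alone, 44 of the 15473 matched the gene table used, and 0 of the 50 did. The transcripts are therefore described by number, tissue markers were not checked, and no function is assigned.

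Median array values after joint quantile normalization were alike but not equal, from 9.28 to 9.58 over the 23 arrays of independent samples. With array medians set equal the set held 44 transcripts. The arrays lay on 6 slides of 4, where the slide of L3_3 was read as slide 1 from an incomplete number, so that slide results involving this array rest on that reading. Arrays 18hC, 24hB and 6hB had stood apart from their stages in earlier results of these data. In the 50 transcripts, 18hC lay a median of -0.48 from the other 18 h arrays against -0.07 for all transcripts, 24hB -0.17 against 0.00, and 6hB 0.05 against 0.03. Results are given without these 3 arrays where that moved a count by over 1.5 times. They were not the only arrays apart. Over 2-fold differences from the rest of the stage were found in 11.5% of all transcripts in 18hC, 11.7% in 24hB and 6.4% in 6hB. The shares were 8.63% in 24hD, 8.86% in 36hB, 10.3% in 36hC and 7.17% in 36hD.

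At L3 the 50 transcripts were mostly dim. The median over their stage means was 7.76 on the log2 scale, at the 38.5th percentile of all transcripts on the array. It was 10.84 at 2 h APF and 10.76 at 6 h APF, at the 61.1st and 60.4th percentiles. It was 7.11, 7.56 and 7.49 at 18, 24 and 36 h APF, at percentiles of 30.4, 34.5 and 32.4. The set thus moved from below the middle of the array to above it and back, and it covered a wide range at its height, since the lower of the 2 and 6 h means ran from 6.29 to 14.27. Margins ran from 1.01 to 4.47 with a median of 1.51. They were 2 or more in 11 transcripts, 1.5 to 2 in 14 and under 1.5 in 25.

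**Figure D1:**
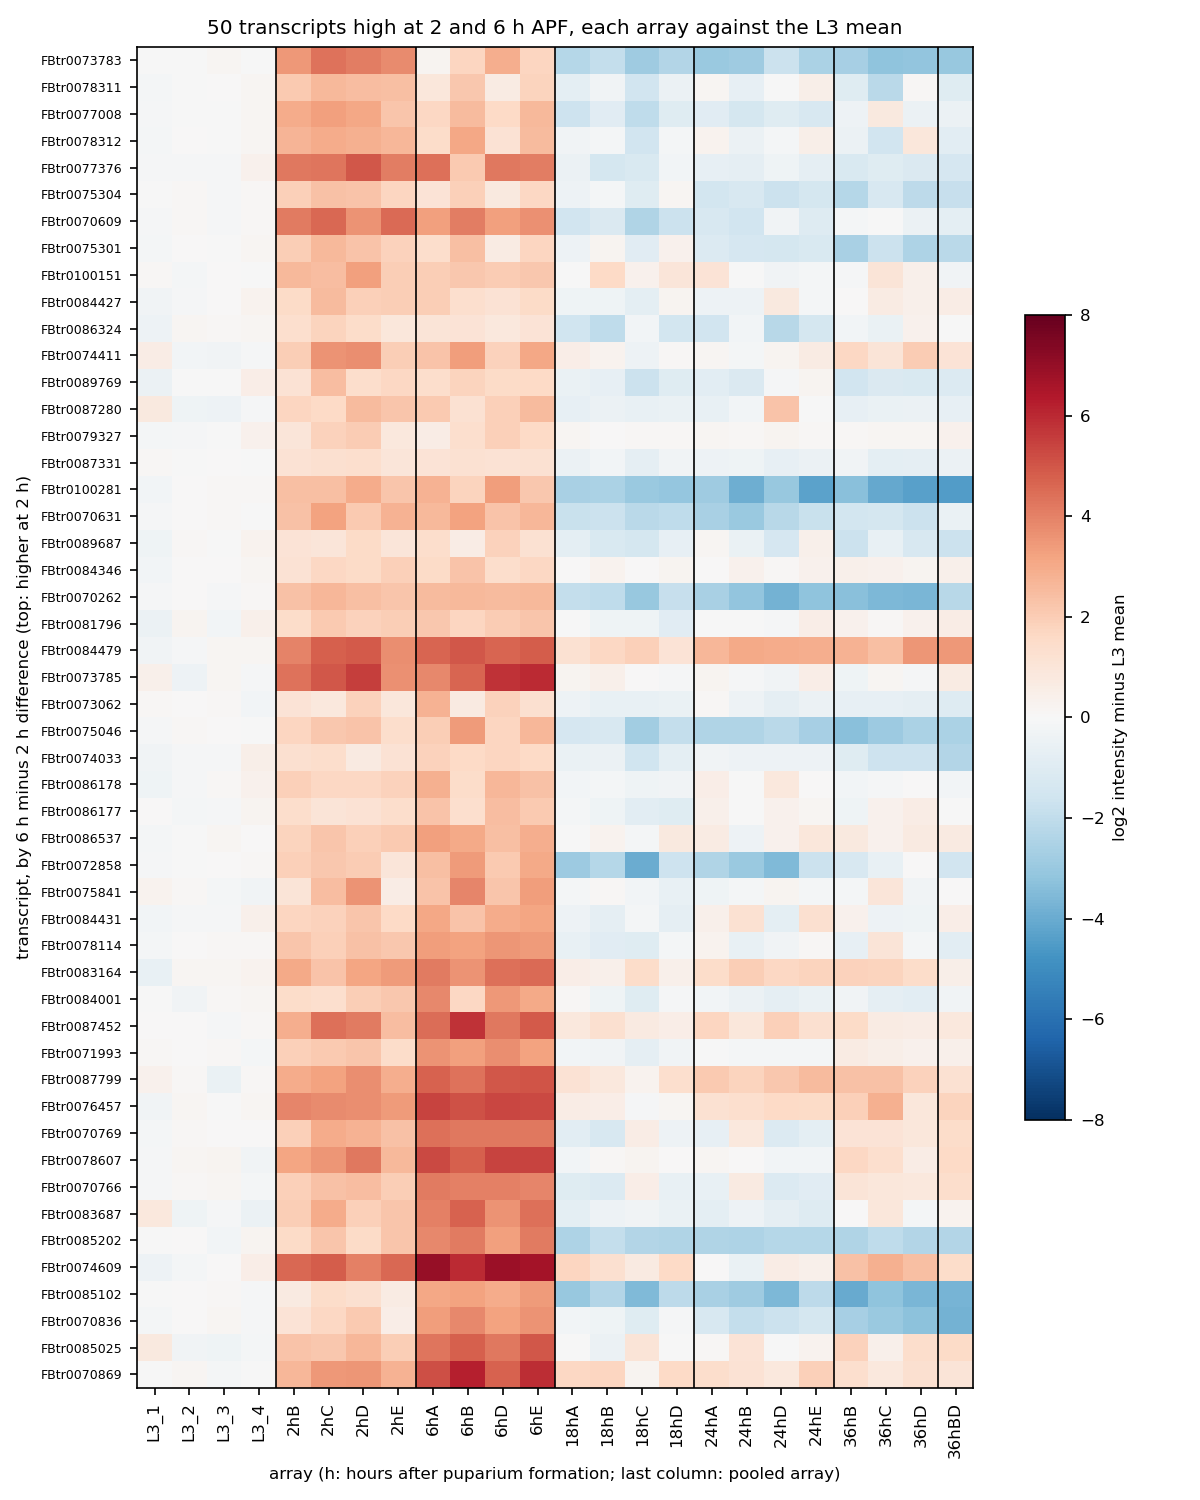
Log2 intensity of each of the 50 transcripts (rows, ordered by their 6 h minus 2 h difference) on each of 24 arrays (columns, by stage, with the pooled array last), as the difference from the transcript's L3 mean. The 8 arrays of 2 and 6 h APF form a red block, while blue at 18 to 36 h APF marks transcripts that lay below their L3 level.

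The 8 arrays of 2 and 6 h APF lay above all 15 arrays of the other stages in 47 of the 50 transcripts. Over all transcripts this held in 1.05%, a share that the rule itself separates from the members, so nothing is read from it. The 3 exceptions each rested on a few arrays. In FBtr0075841 the 2hE array (6.74) lay under the 36hC array (7.12). In FBtr0087280 the 6hB array (6.61) lay under the 24hD array (7.70), which was itself far above the other 24 h arrays at 4.80 to 5.33. In FBtr0074411 the 6hD array (7.28) lay under the 36hD array (7.50).

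FBtr0073785 had the largest margin, 4.47. Its log2 intensities were 9.64, 10.28, 10.82 and 8.98 in samples B, C, D and E of 2 h APF and 9.17, 9.97, 11.11 and 11.29 in samples A, B, D and E of 6 h APF. They were 5.70, 4.88, 5.45 and 5.21 at L3 and between 4.97 and 5.86 in all 11 later arrays. On the linear scale it ran from 504 to 2510 on the arrays of 2 and 6 h and from 29.4 to 58.1 on the others, so outside 2 and 6 h it lay close to the lowest values of the arrays, 4.07 to 4.26 on the log2 scale. With no detection call to set a background, no fold is given for differences from values this low. Its 6 h samples spread widely, with A lowest and E highest.

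FBtr0077376 followed with a margin of 3.70. It stood at 10.82, 10.88, 11.58 and 10.72 at 2 h APF, at 11.04, 8.68, 10.82 and 10.67 at 6 h APF, at 6.48 to 6.92 at L3 and at 5.20 to 6.36 in the later arrays. Sample B of 6 h was the low one and still lay above every array outside 2 and 6 h.

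FBtr0070609 was brighter, with a margin of 3.57 (11.9-fold). Its values were 12.98, 13.41, 12.40 and 13.33 at 2 h APF and 12.11, 12.88, 12.07 and 12.43 at 6 h APF, against 8.72 to 8.88 at L3. At 18 h APF it had fallen below L3, to 7.25, 7.64, 6.39 and 7.09 (log2 difference -1.71 ± 0.27, SE, limma adjusted p = 6.4e-05). At 36 h APF it read 8.62, 8.75 and 8.31, again within reach of its L3 arrays, with a difference from L3 of -0.24 ± 0.30 and no call (adjusted p = 0.5).

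The next 5 by margin were FBtr0070631 (2.62), FBtr0100281 (2.49), FBtr0070262 (2.39), FBtr0078607 (2.19) and FBtr0077008 (2.10). All except FBtr0078607 had L3 as the highest of their other stages. FBtr0070262 was among the steadiest at 6 h APF, with 13.79, 13.85, 13.81 and 13.84, above its 2 h values of 13.57, 13.91, 13.64 and 13.46 except for sample C. Its L3 arrays read 11.19 to 11.38.

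**Figure D2:**
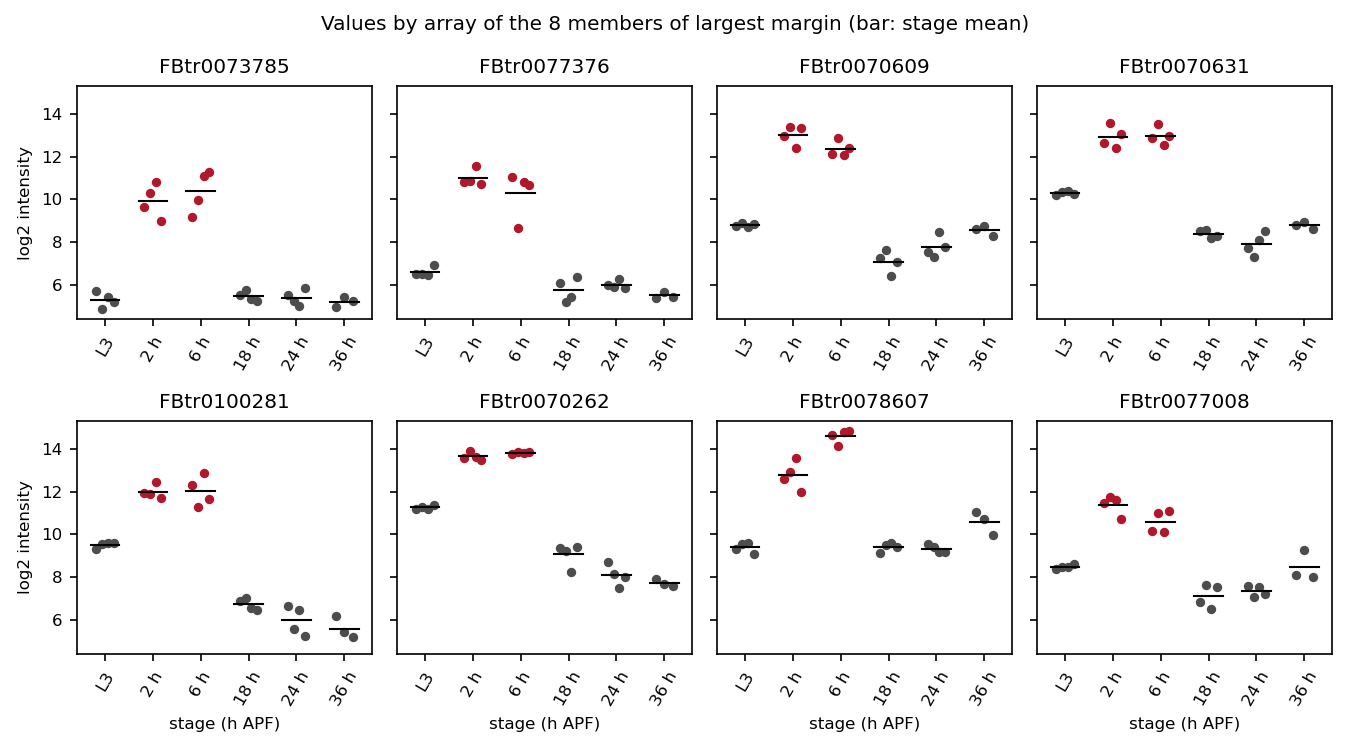
Log2 intensity by stage (h APF) of the 8 transcripts of largest margin, 1 point per array with a bar at the stage mean, red at 2 and 6 h. FBtr0073785 and FBtr0077376 stayed under 7 on every array outside 2 and 6 h, while FBtr0100281 and FBtr0070262 ended well under their L3 level.

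By the lower of its 2 and 6 h means the brightest transcript was FBtr0087331, although at 6 h alone the means of FBtr0078607 (14.60) and FBtr0070836 (14.41) were above its own (14.27). It read 14.23, 14.36, 14.43 and 14.08 at 2 h APF, 14.19, 14.30, 14.27 and 14.33 at 6 h APF and 13.05 to 13.17 at L3. It was thus already bright at L3, and its margin of 1.17 (2.25-fold) was modest. After FBtr0087331 the highest lower means of 2 and 6 h belonged to FBtr0070262, FBtr0070631 and FBtr0078607.

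The transcripts did not share 1 timing within the prepupal hours. The 6 h minus 2 h difference ran from -2.27 to 2.40 with a median of 0.51, and was above 0 in 34 transcripts and below 0 in 16. It stayed within 0.5 either way in 16. Another 19 were over 1 higher at 6 h and 2 were over 1 higher at 2 h, while 6 and 7 lay 0.5 to 1 higher at 6 h and at 2 h. All 6 h arrays lay above all 2 h arrays in 18 transcripts (15.6% of all transcripts on the array) and below them in 1 (20.5% of all). The rule limits this difference on one side, so these shares are given without a reading.

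The 1 transcript whose 2 h arrays all lay above its 6 h arrays was FBtr0073783. It read 11.69, 12.54, 12.28 and 11.96 at 2 h APF and 8.42, 9.91, 11.13 and 9.95 at 6 h APF. Its L3 arrays stood at 8.15 to 8.33, so sample A of 6 h was back at the L3 level while sample D was still far above it. FBtr0078311, FBtr0077008 and FBtr0078312 followed, with 6 h minus 2 h differences of -1.02, -0.79 and -0.72. FBtr0078311 and FBtr0078312 shared a split of the 6 h samples. FBtr0078311 read 10.07, 11.33, 9.80 and 10.95 in A, B, D and E, and FBtr0078312 read 11.12, 12.79, 10.83 and 12.21. In both, B and E were high and A and D low. This split was not particular to the pair. Other transcripts of the set, such as FBtr0077008, FBtr0070869 and FBtr0072858, also had B and E above A and D. Others, such as FBtr0073783, did not.

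At the other end stood FBtr0070869, with 9.35, 10.16, 10.23 and 9.50 at 2 h APF and 11.87, 12.92, 11.44 and 12.59 at 6 h APF. Its L3 arrays read 6.57 to 6.88, so the 2 h arrays were already well above every L3 array. FBtr0085025 read 5.36 to 6.50 at L3, 7.68 to 8.34 at 2 h and 9.91 to 10.66 at 6 h. FBtr0070836 read 10.77 to 11.06 at L3, 11.44 to 12.99 at 2 h and 14.14 to 14.73 at 6 h. In each of these the 3 stages did not overlap and stepped upward.

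The limits of the rule cut through a continuous range. Just inside the margin of 1 were FBtr0085102 (1.01), FBtr0086324 (1.03) and FBtr0087799 (1.03), and just outside were FBtr0070765 (0.97), FBtr0073364 (0.96) and FBtr0086557 (0.95). A further 11 transcripts (0.0711% of all) met the margin and went over the limit on the 6 h minus 2 h difference. Their median stage means were 10.49 at 2 h and 14.00 at 6 h, compared with 10.84 and 10.76 in the 50. Over the whole array, 44 transcripts (0.284%) had a 2 h mean at least 1 above every other stage and 495 (3.2%) had such a 6 h mean. These groups overlap with the 50 (0.323%). The 19 of the 50 that were over 1 higher at 6 h than at 2 h are among the 495. The 2 that were over 1 higher at 2 h are among the 44.

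Each array in turn was left out of the stage means, the transcripts were chosen again, and their values were read on the array that had taken no part in the choice. In the 8 arrays of 2 and 6 h, 346 of 400 pairs of a chosen transcript and a left-out array lay at least 1 above the highest other mean (86.5%) and 397 lay above it. In the 15 arrays of the other stages, 707 of 750 pairs lay at least 1 below the lower mean of 2 and 6 h (94.3%) and 748 below it. The lowest share was that of 2hE, where 35 of 54 transcripts reached 1 (64.8%), and the highest of the 8 was that of 6hE, with 49 of 49. Over all transcripts 0.711% to 4.73% reached 1 on an array of 2 or 6 h. On an array of the other stages 2.99% (L3_4) to 11.7% (36hC) did so. Pairs from the same array are not independent. These samples come from the same stages and normalization as those that chose the transcripts.

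**Figure D3:**
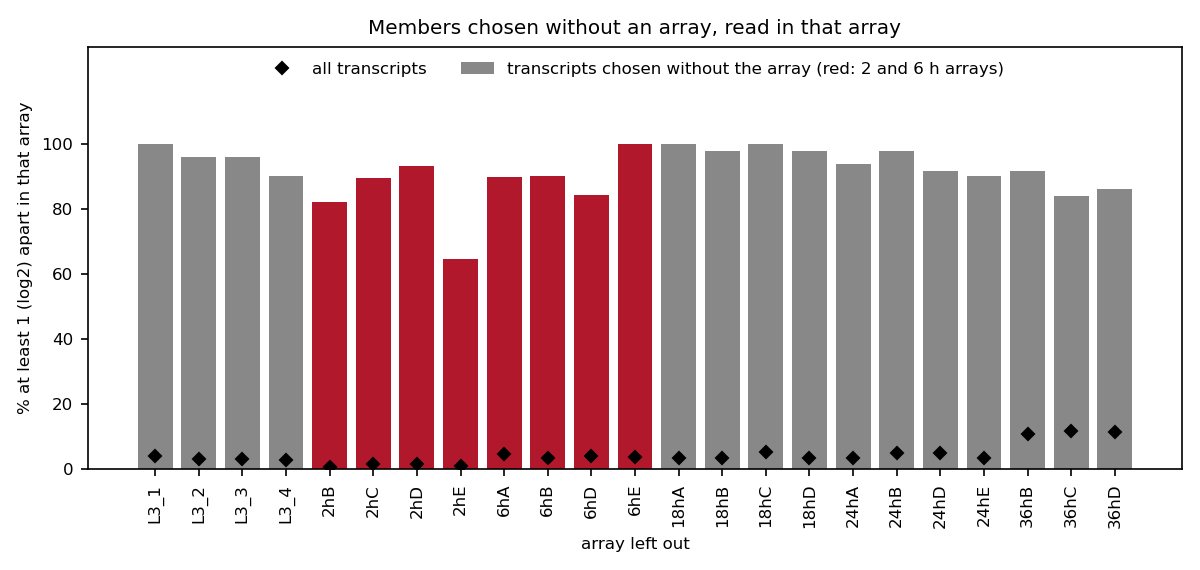
Share of transcripts (%), chosen without an array, that lay at least 1 on the log2 scale on the chosen side in that array (bars, red for 2 and 6 h APF), with the share of all 15473 transcripts as diamonds. The bar of 2hE is the lowest at 64.8%, and those of 6hE, L3_1, 18hA and 18hC reach 100%.

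Sample 2hE was low beyond the few transcripts named, with the lowest median of 2 h over all transcripts (9.37, against 9.47 to 9.55). It was the lowest of the 4 samples of 2 h in 26 of the 50 transcripts, against 33.5% of all transcripts, whereas 2hC and 2hD were each the highest in 22 (35% and 17% of all). At 6 h APF sample D was lowest in 22 (25.7% of all) and E in 3 (23.2%). Sample B of 6 h was highest in 19 and lowest in 17, near its shares of all transcripts (36.6% and 30.3%). The median SD between samples was 0.39 at 2 h and 0.41 at 6 h, against 0.24 and 0.23 over all transcripts, and 0.16 at L3, close to the 0.15 of all transcripts. At 18 h it was 0.40 (0.25), at 24 h 0.37 (0.29) and at 36 h 0.32 (0.28). The 50 transcripts thus varied between samples more than the array at large at every stage after L3, by the medians.

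The height was described apart for stages dissected with and without notum. Against L3 alone, whose samples also held notum, the lower mean of 2 and 6 h was 1.01 to 4.62 higher, with a median of 1.94. Against the highest of 18, 24 and 36 h APF, whose samples held none, it was 1.03 to 5.28 higher, with a median of 1.73. The rule itself sets both differences at 1 or more. The first is from 1 stage and the second from the highest of 3, so the medians are not compared. Whether the height depends on the dissection was not tested. Within slides, the lowest array of 2 and 6 h lay at least 1 above the highest other array of an independent sample in 41, 44, 47, 45 and 38 of the 50 transcripts on slides 1 to 5, and in 1.38%, 6.56%, 3.68%, 1.81% and 1.62% of all transcripts. These are arrays that the rule used, so nothing is read from the counts. With the pooled array, which lay on slide 3, the count there was 43 (1.47% of all), and without L3_3 the count on slide 1 was 45 (3.31%). Slide 6 carried no 2 or 6 h array.

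The pooled array of 36 h APF, which the rule did not use, gave a further reading of that stage from RNA already counted in samples B and D. It lay at least 1 below the lower mean of 2 and 6 h in 46 of the 50 transcripts. The exceptions were FBtr0084479 (0.89 below), FBtr0070766 (0.77), FBtr0084427 (0.93) and FBtr0085025 (0.73). It fell inside the range of the 3 arrays of 36 h in 27, with a median absolute distance of 0.33 from their mean. Samples B and D had entered the 36 h means of the rule, and shares over all transcripts were not taken. Nothing is therefore read from these counts.

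What the transcripts did outside the 2 peak stages was less fixed by the rule, which bounds only the highest of the 4 other means. The highest of these was L3 in 22 transcripts, 36 h in 18, 24 h in 8 and 18 h in 2. The lowest was 36 h in 18, 18 h in 14, L3 in 13 and 24 h in 5. Differences between these stages were tested in 4 comparisons with limma over all 15473 transcripts, with Benjamini-Hochberg adjusted p under 0.05. The comparisons ask whether transcripts came back to their larval level after the prepupal hours and whether they changed again as the pupal wing differentiated. Samples of L3 held notum and those of 18 and 36 h did not, so in comparisons with L3 stage and dissection cannot be told apart.

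From L3 to 18 h APF, 15 of the 50 fell (30%), against 14.3% of all transcripts, and 4 rose (8%), against 13% of all. The median difference was -0.45 in the 50 and -0.00 over all transcripts. FBtr0100281 fell most. It read 9.29, 9.53, 9.60 and 9.58 at L3 and 6.90, 7.00, 6.53 and 6.44 at 18 h APF, a difference of -2.79 ± 0.32 (SE, limma adjusted p = 1.1e-06). FBtr0085102 went from 10.56, 10.63, 10.70 and 10.47 to 7.56, 8.27, 7.08 and 8.50, a difference of -2.74 ± 0.30 (adjusted p = 4.9e-07). Both had thus stood well above their later levels before the prepupal rise. FBtr0087331 had a small fall, -0.41 ± 0.12 (adjusted p = 0.017), which did not pass without sample C of 18 h (adjusted p = 0.076, with a range of 0.0046 to 0.081 over its alternatives).

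Among the 4 that rose, FBtr0084479 went from 8.16, 8.35, 8.57 and 8.57 to 9.61, 10.05, 10.34 and 9.53, by 1.47 ± 0.25 (limma adjusted p = 0.00013). FBtr0074609 went from 7.15, 7.35, 7.55 and 8.07 to 9.26, 8.79, 8.24 and 9.14, by 1.33 ± 0.28 (adjusted p = 0.00099). Even so, both remained far under their 6 h arrays, which read 13.05 to 13.36 and 13.52 to 14.51.

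From 18 to 24 h APF, where no sample held notum, few transcripts changed. Of the 50, 5 rose (6.64% of all transcripts) and 5 fell (6.06% of all), and the median difference was 0.11 against 0.03. FBtr0084479 rose again, to 11.07, 11.42, 11.35 and 11.35, by 1.42 ± 0.25 (limma adjusted p = 0.00049). FBtr0087799 rose from 7.52, 7.20, 6.70 and 7.76 to 8.45, 8.17, 8.57 and 8.95, by 1.24 ± 0.24 (adjusted p = 0.0013). FBtr0074609 turned back, to 7.55, 6.99, 8.11 and 7.96, a difference of -1.20 ± 0.28 (adjusted p = 0.0053). FBtr0070836 fell from 10.66, 10.56, 9.91 and 10.82 to 9.60, 8.98, 9.18 and 9.50, a difference of -1.17 ± 0.26 (adjusted p = 0.0038). In each of these 4 the arrays of the 2 stages did not overlap, but this was a condition for naming them, so nothing is read from it. Without sample D of 18 h the count of rises was 3.

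From 24 to 36 h APF, 12 of the 50 rose (24%), against 20.5% of all transcripts, and 5 fell (10%), against 29.6% of all. The medians were 0.00 and -0.06. FBtr0074609 rose to 9.88, 10.40 and 9.92 in samples B, C and D, by 2.41 ± 0.30 (limma adjusted p = 1.4e-06), so it had peaked at 6 h, dropped by 24 h and risen a second time. FBtr0072858 rose from 7.42, 6.87, 6.30 and 8.09 to 8.54, 9.25 and 9.84, by 2.04 ± 0.48 (adjusted p = 0.0014). FBtr0070836 fell further, to 8.23, 7.94 and 7.65, a difference of -1.37 ± 0.28 (adjusted p = 0.00042). FBtr0074033 went from 7.09, 6.97, 6.99 and 6.97 to 6.38, 5.71 and 5.73, a difference of -1.07 ± 0.24 (adjusted p = 0.00086). The falls were the least settled count. They numbered 8 without 6hB, or without 18hC, 24hB and 6hB together, 3 without 24hE or 36hD and 2 without 36hB. With array medians set equal, 13 rose and 3 fell.

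Between L3 and 36 h APF, the ends of the series, 13 of the 50 rose (26%) and 16 fell (32%), close to the 30% and 30.8% of all transcripts. The median difference was -0.10 against 0.04. FBtr0084479 ended at 11.17, 10.83 and 11.93, which was 2.90 ± 0.27 above L3 (7.46-fold, limma adjusted p = 1.1e-08). FBtr0074609 ended 2.54 ± 0.30 above L3 (adjusted p = 3.3e-07). FBtr0100281 ended near the lowest values of the arrays, at 6.16, 5.40 and 5.18 (log2 difference from L3 -3.92 ± 0.35, adjusted p = 4.8e-09), and FBtr0085102 at 6.57, 7.36 and 6.97 (-3.63 ± 0.32, adjusted p = 4.6e-09). Without 36hB the count of rises was 8. Against L3, 11 transcripts had fallen at 18 h and also at 36 h (11% of all transcripts did so), 4 had risen at both (8.56%), and 17 had no call at either (33.9%). Another 9 rose at 36 h alone (20.3%), 5 fell at 36 h alone (18.6%) and 4 fell at 18 h alone (2.15%). Altogether 15 had no call in any of the 4 comparisons (28.3% of all).

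**Figure D4:**
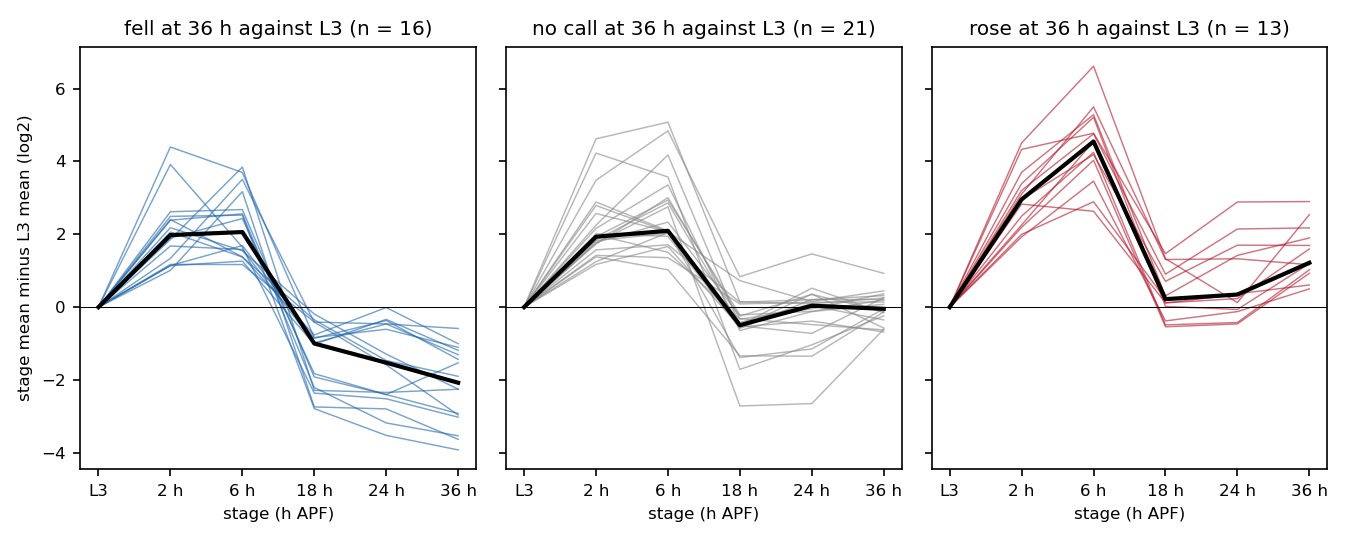
Stage means of each of the 50 transcripts minus its L3 mean (log2, thin lines) over the stages (h APF), split by the limma call at 36 h APF against L3, with the median in black. The 16 that fell ended below 0, the 21 without a call near 0 and the 13 that rose above 0, after a rise at 2 and 6 h in all panels.

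The 3 groups split by the call at 36 h also had different medians of the 6 h minus L3 difference, 4.55 in the 13 that rose, 2.06 in the 16 that fell and 2.10 in the 21 without a call. The rule puts the 6 h mean at least 1 above the 36 h mean. A transcript that ended above L3 therefore had to stand higher still over L3 at 6 h. Both differences are also taken from the same L3 arrays, so nothing is read from these medians. In the 13 that rose at 36 h the median stage means were 7.91 at L3, 11.70 at 2 h, 13.19 at 6 h, 8.86 at 18 h, 9.33 at 24 h and 10.07 at 36 h. In the 16 that fell they were 9.30, 11.54, 11.05, 7.83, 7.74 and 6.90, and in the 21 without a call 6.99, 9.15, 9.17, 6.81, 6.80 and 7.36. Of the 19 transcripts over 1 higher at 6 h than at 2 h, 10 rose and 3 fell at 36 h against L3. Of all 1023 transcripts on the array with such a difference under the limit of 2.5, 60.8% rose and 11.7% fell. Of the other 31, 3 rose and 13 fell, and of the 14075 transcripts up to 1 higher at 6 h, 27% rose and 32.6% fell. Over the 50 the 6 h minus 2 h difference and the 36 h minus L3 difference had a Pearson correlation of 0.319 and a Spearman correlation of 0.366. Over all 15473 transcripts the Pearson correlation was 0.361, a value as large as in the set. These are descriptions across transcripts, which share the arrays and are not independent.

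**Figure D5:**
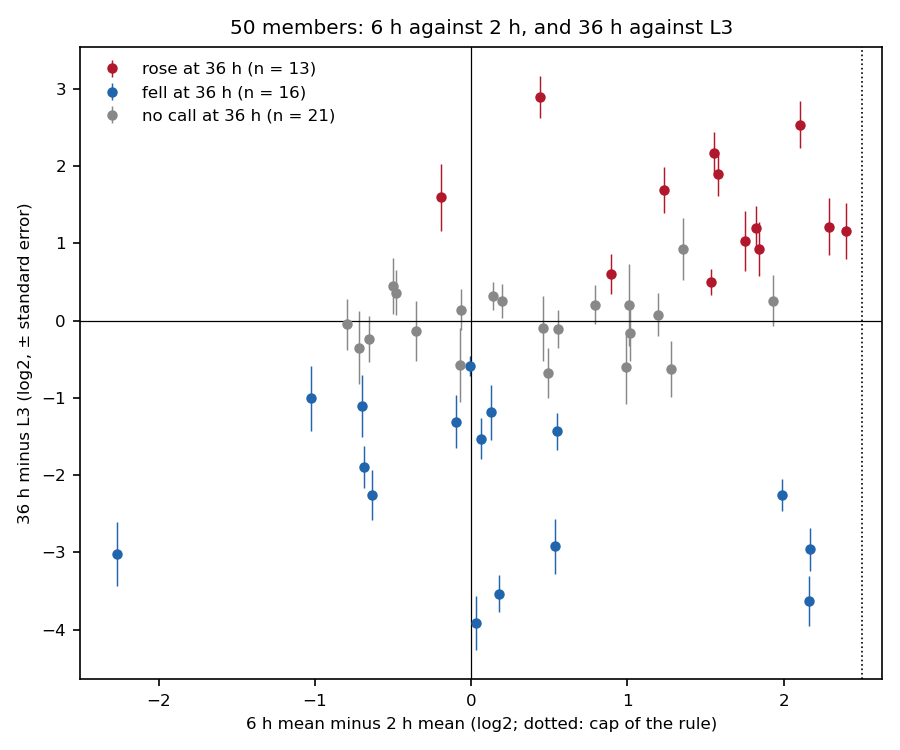
The 6 h minus 2 h difference of stage means (x axis, log2) against the 36 h minus L3 difference with its standard error (y axis, log2) for the 50 transcripts, coloured by the limma call at 36 h. Of the 19 points right of 1 on the x axis, 10 are red (rose) and 3 are blue (fell).

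Some of the transcripts carry neighbouring FlyBase numbers, and 6 pairs, holding 12 of the 50, lay within 5 of each other. Their sequences were not used here, so it is not known whether such a pair shares a gene or probe sequence, and a pair may not be independent readings. FBtr0070766 and FBtr0070769 had a Pearson correlation of 0.997 over the 23 arrays and of 0.958 after the stage means were removed, and differed by 0.132 on average. FBtr0075301 and FBtr0075304 (0.991 and 0.935) and FBtr0078311 and FBtr0078312 (0.979 and 0.972) were alike in the same way. FBtr0086177 and FBtr0086178 had 0.948 and 0.711, and FBtr0073783 and FBtr0073785 had 0.854 and 0.53. FBtr0084427 and FBtr0084431 went apart within stages, with 0.715 and -0.452. No transcript of the 50 had values identical to those of another on the array.

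Outside the 50, the transcripts whose 6 stage means best followed the mean profile of the set were FBtr0077326, FBtr0083911, FBtr0078266, FBtr0075563 and FBtr0100240, with Pearson correlations of 0.9992, 0.9962, 0.9941, 0.9919 and 0.9908. Their stage means followed this profile at a smaller size, with margins of 0.23, 0.79, 0.25, 0.55 and 0.41. Of these, FBtr0083911 was the largest, at means of 11.01 at L3, 11.80 at 2 h, 12.17 at 6 h and 10.77 to 10.85 from 18 to 36 h APF. The means of FBtr0077326, a dim transcript, ran only from 5.35 to 5.69, with an SD of 0.38 at 6 h and 0.41 at 24 h. Those of FBtr0078266 ran from 7.26 to 7.60, with an SD of 0.78 at 24 h. Differences this small lie within the spread between samples, so no likeness is read from the correlations of FBtr0077326 and FBtr0078266. The correlations of the 50 with their own mean profile ran from 0.751 to 0.989 with a median of 0.938.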

How the data were processed

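NimbleGen 60-mer expression arrays of Drosophila wing RNA, amplified linearly and labelled with Cy3, gave the data. The authors used NimbleScan for scanning and for a quantile normalization over every array of the study, and summarised the probes of a transcript into a linear intensity by RMA, a tool that the processing notes of the submitters list. For RMA's version, the genome build and the annotation release, nothing is given in the sources used here. A deposited log2 table of the whole series, in which columns of L3 samples are interchanged, was an alternative. The deposited files also give another number, the count of probes per transcript (4 or 5 for the 50), which entered no test. All columns of measurements were tied to a sample. Normalization hides changes in total RNA and compresses dim transcripts, no background or detection call was used, and precision is limited by the number of arrays.

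Intensities were taken to log2 and fitted in limma 3.58.1 (R 4.3.3; lmFit and eBayes) over 23 arrays with 1 mean per stage, and p-values were Benjamini-Hochberg adjusted over all 15473 transcripts. The study's methods name an ANOVA, which was run as an alternative. No transcript was filtered out. The fit was tested on simulated data. Figures were drawn with matplotlib 3.10.9.

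The 50 members and all lists were chosen with earlier results of these data known. Transcripts were named by a rule: the 8 of largest margin, the 4 highest and 4 lowest in 6 h minus 2 h, the 4 brightest, the 2 largest non-overlapping rises and falls of each comparison, and the 3 on either side of the margin. It gave 25 transcripts, 22 of them members. The 5 outsiders of most similar profile were added by their correlation, and the others named are exceptions or close pairs chosen after their values were seen. Gene lists and cell type markers were not analysed here, since no member matched the Release 6 gene table, and no sequences are given for the same reason.

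Alternatives were the pooled array kept, stage medians, other normalizations, slide as a fixed or random block, the replicate letter as a block, a trended and robust eBayes, dim transcripts left out, fits of no stages other than those compared, margins of 0.75 and 1.5, no limit on 6 h minus 2 h, 3 arrays left out together, and each array left out in turn. A fit of 18, 24 and 36 h APF without the block, and slide counts with the pooled array or without L3_3, were added after the data were seen.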

Additional observations from a re-analysis of the deposited data

Results flagged for a closer look

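In the 25 named transcripts, 125 groups of 4 samples were examined for a value far from the other 3, and 7 were found. Chance gives about 1 in 20 groups, a rate near the one found, so the 7 are listed without a reading. Of the 7, 3 were in array 18hC, which also differed over 2-fold from the other 18 h arrays in 13 of the 50 transcripts (11.5% of all transcripts). FBtr0070262 read 8.24 in 18hC against 9.22 to 9.39 in the other 18 h arrays, FBtr0070869 read 6.95 against 8.30 to 8.46, and FBtr0078312 read 8.16 against 9.37 to 9.54. FBtr0077376 read 8.68 in 6hB against 10.67 to 11.04 in the other 6 h arrays, the widest gap of the 7, and 6.92 in L3_4 against 6.48 to 6.53. FBtr0073783 read 8.33 in L3_3 against 8.15 to 8.17, and FBtr0086324 read 7.75 in L3_1 against 8.26 to 8.30, both small gaps in a stage with little spread.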

How the results depend on the processing

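The set held 89 transcripts at a margin of 0.75, 25 at 1.5 and 29 with dim transcripts left out. Over the single arrays left out in turn it held 46 to 54, and 40 of the 50 were kept whichever array was left out. It shared 44 of its 44 with the 50 when array medians were set equal, 46 of 54 after cyclic loess, 43 of 47 with stage medians and 50 of 50 in the deposited log2 table. With dim transcripts left out, falls from L3 numbered 8 at 18 h and 6 at 36 h APF and rises at 36 h numbered 8, while from 18 to 24 h APF 3 rose and 3 fell and from 24 to 36 h APF 3 fell. Fewer transcripts enter that test. From 18 to 24 h APF, 3 rose in a fit of those stages alone and 3 in a fit of 18, 24 and 36 h. From 24 to 36 h APF, 3 fell in the latter fit, 3 by the methods' ANOVA, 3 with array medians set equal and 8 without 18hC, 24hB and 6hB. Slide as a block, fixed or random, moved no count by over 1.5 times.

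With the replicate block, over 18, 24 and 36 h APF only, 0 transcripts rose and 1 fell from 18 to 24 h, and 6 rose and 1 fell from 24 to 36 h. Whether the letters pair the samples is not known from the titles. Deviations of same-letter samples had correlations of 0.083, -0.554 and -0.026 in A, B and D from 18 to 24 h. From 24 to 36 h they were 0.179 and -0.195 in B and D. These values cannot settle whether a pairing exists. L3 carried numbers, so no paired analysis was possible there.

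Leaving out each array in turn gave 4 to 5 rises and 13 to 17 falls at 18 h against L3, 3 to 7 and 4 to 5 at 24 h against 18 h, 10 to 13 and 2 to 8 at 36 h against 24 h, and 8 to 14 and 13 to 18 at 36 h against L3. Of 1576 alternative values of the 46 calls of named transcripts, 1522 kept their direction and passed the test, 54 kept the direction and did not pass, and 0 reversed. Many of these alternatives could not change a direction. Leaving out an array of a stage that is not compared, or changing only the test, keeps the difference as it was. Many of the calls were also named for their large folds, so nothing is read from the 0. Least settled were the fall of FBtr0078311 at 36 h against L3 and of FBtr0085102 at 36 h against 24 h APF. Where counts moved with a setting, the cause was not tested.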
